A study of Mus musculus with 9 samples.

Results

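The Rab GTPases were followed in RAW-264.7 cells, a mouse line of the monocyte and macrophage lineage, after stable transfection. The clones carried a mouse FoxQ1 construct or the empty plasmid. A gene was counted as a Rab gene if its symbol was exactly Rab, a number and at most 1 letter and 1 digit. By this rule 56 of the 16492 genes on the array were Rab genes. Rab5a, Rab5b and Rab42 fit the same rule by name but were not analysed here. The RAW-FoxQ1 group consisted of 5 clones, numbered 7.1 to 7.5, with the FoxQ1 cDNA in the pEF6/V5-His TOPO plasmid, and the RAW-vector group consisted of 4 clones, numbered 4, 5, 6 and 7, with that plasmid and no insert. The stable clones were selected with 6 µg/ml blasticidin S, which selects for the plasmid. No source states whether the drug was present when the RNA was taken, and no other treatment is stated for the 9 clones. Each clone gave 1 Affymetrix array, and the deposited values are log2 expression values. The clones were derived from single cells, and the errors and p-values below measure the spread between clones. No source states whether clones of a group go back to the same transfected cell. If they do, they are not separate transfections, and the p-values cannot separate the construct from other traits of that cell.

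Rab proteins are small GTPases that sit on the membranes of vesicles and organelles, where each marks a step of membrane traffic. Guanine nucleotide exchange factors (GEFs) load them with GTP, GTP-bound Rabs recruit effectors such as motors and tethers, and GTPase-activating proteins (GAPs) switch them off. The lipid-modified Rab is then lifted off the membrane for another round. In macrophages Rabs direct uptake, the stepwise maturation of phagosomes, recycling of receptors to the surface and secretion of cytokines.

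Foxq1 was measured first. Its log2 value lay between 7.27 and 7.44 in RAW-FoxQ1 clones and between 6.94 and 7.01 in RAW-vector clones, a log2 fold change of 0.39 (SE 0.040, limma adjusted p = 4.72e-05). The position of the array's Foxq1 probes against the transfected cDNA is unknown, so this value does not measure the transgene. The clones of the groups also did not overlap for 36.1% of all genes, so the Foxq1 difference alone cannot check the labels. The correlation of arrays over all genes was 0.981 to 0.997 within RAW-FoxQ1, 0.988 to 0.998 within RAW-vector and 0.934 to 0.968 between the groups. The macrophage genes Lyz2, Csf1r, Cd14, Ptprc and Spi1 were bright and not called, whereas Adgre1 (F4/80) was lower in RAW-FoxQ1 by a log2 fold change of -2.38. Itgam (-0.65) and Cd68 (-0.41) were also called lower. Over the 11 measured macrophage markers 1 was called higher and 4 lower (9.09% and 36.4%, beside 19.6% and 21.4% of all genes). The mean level of these markers was 10.51 to 10.67 in RAW-FoxQ1 and 10.71 to 11.01 in RAW-vector clones. None of the 8 fibroblast and 6 epithelial markers and 1 of the 7 lymphocyte markers lay above the array median. The part of these marker differences in the Rab values was not tested. Bulk RNA of a clone cannot tell fewer cells in a given state from less RNA per cell.

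Compared with RAW-vector, RAW-FoxQ1 clones had lower RNA levels of 20 Rab genes and higher levels of 7, and 29 were not called (limma, Benjamini-Hochberg adjusted p under 0.05 over all genes). The fallers were led by Rab7b (2.36-fold), Rab33b (2.06-fold) and Rab34 (2.02-fold), and the risers by Rab35 (1.52-fold) and Rab23 (1.44-fold). The called share was 48.2% of Rab genes, beside 40.9% of all genes. Lower calls made up 35.7% of Rab genes and 21.4% of all genes, and higher calls 12.5% of Rab genes and 19.6% of all genes. The median log2 fold change was -0.081 over the Rab genes and -0.014 over all genes, and the median size of change was 0.19 and 0.12 on the log2 scale. The clones of the groups did not overlap for 27 of 56 Rab genes (48.2%), beside 36.1% of all genes. The heat map of all Rab genes shows lower values in each of the RAW-FoxQ1 clones for the leading fallers.

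**Figure D1:**
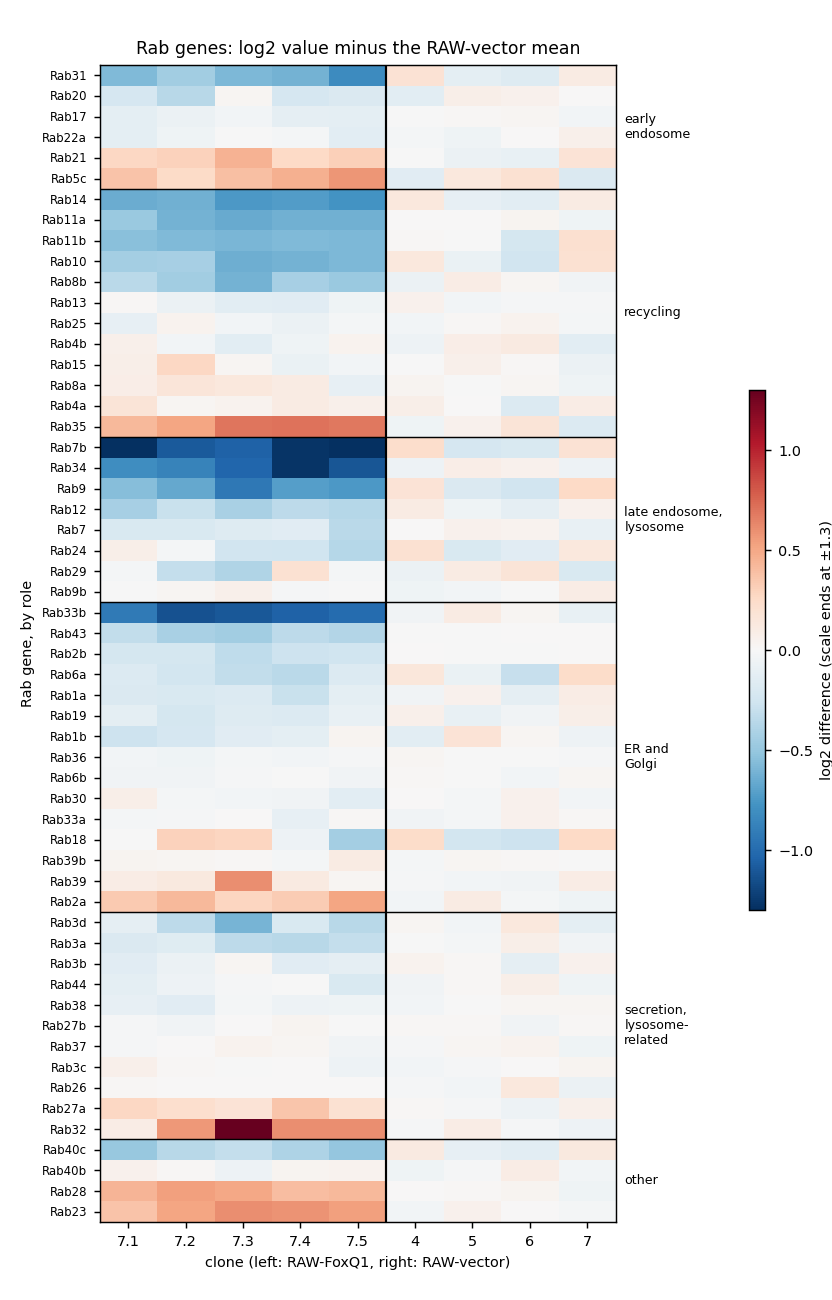
Log2 value of each of the 56 Rab genes in each clone minus the RAW-vector mean of that gene, with RAW-FoxQ1 clones on the left, RAW-vector clones on the right and genes grouped by role (blue lower, red higher, colours end at 1.3). Rab7b, Rab34 and Rab33b were lower in all 5 RAW-FoxQ1 clones, and Rab32 was highest in clone 7.3.

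A technical measure differed between the groups. The bacterial poly-A RNAs that are added to a sample before labelling had a mean log2 value of 7.92 to 8.38 in RAW-FoxQ1 and 8.41 to 8.70 in RAW-vector clones, a difference of -0.50 over 27 control probe sets (two-sided exact permutation p = 0.0159). This mean followed the group closely (r = -0.86 over the 9 clones), so adding it to the fit widens the errors. With it as a covariate, 14 of the 27 called Rab genes were still called in the same direction. These were Rab7b, Rab33b, Rab34, Rab14, Rab31, Rab11a, Rab8b, Rab43, Rab3a, Rab2b and Rab7 among the fallers and Rab2a, Rab28 and Rab23 among the risers. The other 13 kept their direction and missed the threshold, and none of the 27 changed sign. Over all genes the fit with the covariate called 1461 higher and 1274 lower, beside 3225 and 3523 in the fit without it. The part of the spike-in difference in the Rab values was not tested.

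**Figure D2:**
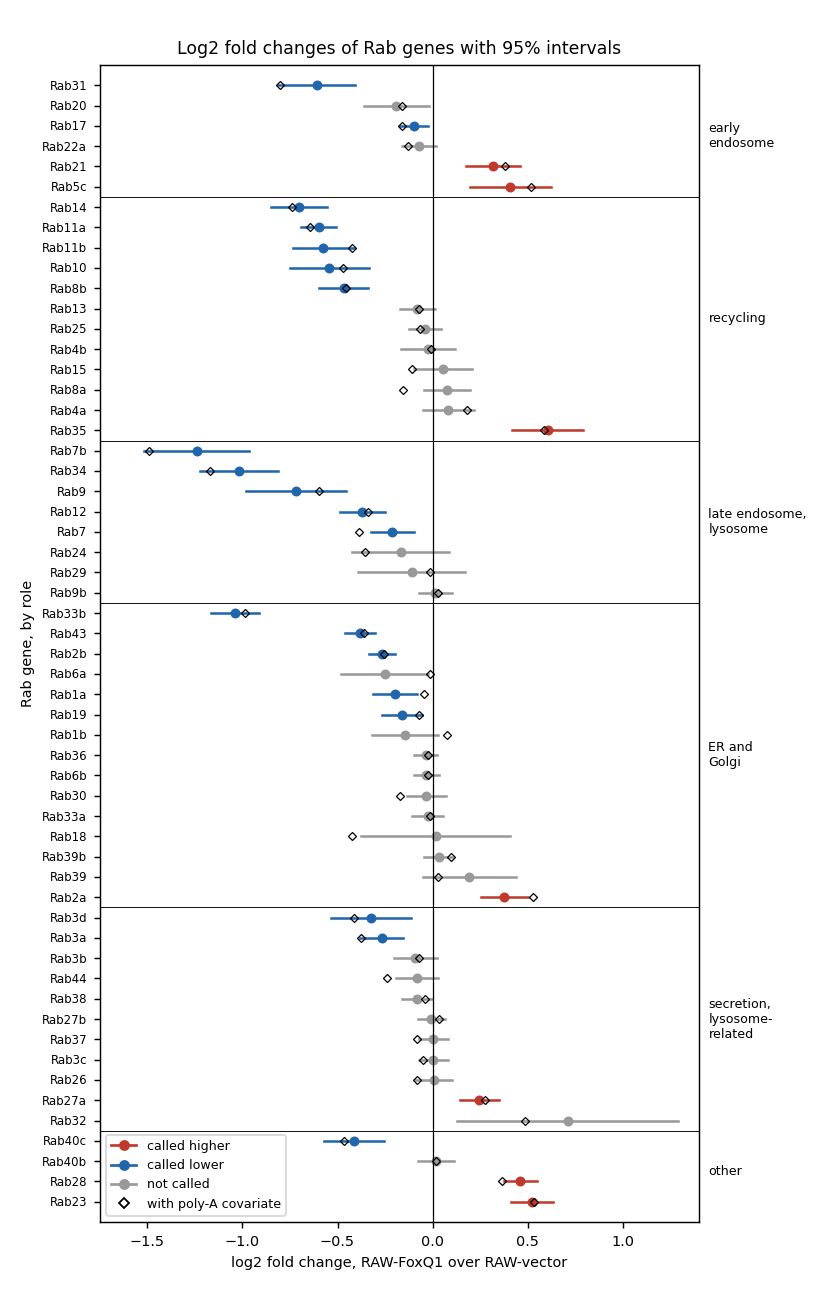
Log2 fold change (RAW-FoxQ1 over RAW-vector) of each Rab gene with its 95% confidence interval from limma, grouped by role, with red for called higher, blue for called lower and grey for not called. Open diamonds give the same fold change with the poly-A covariate, and all 27 called genes keep their side of 0.

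Promoter sequence was available for 45 of the 56 Rab genes, in 57 windows, from RefSeq (GRCm38.p6). The 250 bases before each start were searched on both strands for TGTTTA, a core of forkhead binding motifs, and for CACGTG, the E-box read by basic helix-loop-helix factors such as Tfe3 and Myc. TGTTTA was present in 3952 of 32851 promoters of the whole table (12%), that is in 3658 of 27025 genes (13.5%), in 2 of 19 Rab genes that fell, in 0 of 6 that rose and in 2 of 20 that were not called. CACGTG was present in 1978 of 32851 promoters (6.02%), that is in 1854 of 27025 genes (6.86%), in 3 of 6 Rab genes that rose, in 0 of 19 that fell and in 1 of 20 that were not called. A gene can have several windows and was counted once if any held the letters. The 5 windows of called Rab genes that held either motif are printed 5′ to 3′ on the strand of the gene, with the motif in capitals, to show where it stood. For the risers these were the E-box windows of Rab23 (chr1:33719646-33719895, plus strand, 218 bases before the start), Rab21 (chr10:115315592-115315841, minus strand, 30 bases before) and Rab27a (chr9:73063898-73064147, plus strand, 246 bases before). For the fallers these were the TGTTTA windows of Rab43 (chr6:87809758-87810007, minus strand, 136 bases before the start) and Rab7 (chr6:88045271-88045520, minus strand, 220 bases before). A match describes the letters of a window and does not show that a factor binds there.
Rab23: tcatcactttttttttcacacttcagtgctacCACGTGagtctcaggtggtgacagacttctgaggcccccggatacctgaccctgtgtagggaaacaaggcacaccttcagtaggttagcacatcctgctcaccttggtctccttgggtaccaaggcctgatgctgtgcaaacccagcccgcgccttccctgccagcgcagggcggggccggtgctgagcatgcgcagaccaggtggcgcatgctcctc
Rab21: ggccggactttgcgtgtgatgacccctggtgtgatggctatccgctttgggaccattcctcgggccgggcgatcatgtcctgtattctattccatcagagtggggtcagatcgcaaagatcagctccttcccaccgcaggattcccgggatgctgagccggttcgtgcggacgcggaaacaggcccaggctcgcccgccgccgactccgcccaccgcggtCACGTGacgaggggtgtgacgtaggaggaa
Rab27a: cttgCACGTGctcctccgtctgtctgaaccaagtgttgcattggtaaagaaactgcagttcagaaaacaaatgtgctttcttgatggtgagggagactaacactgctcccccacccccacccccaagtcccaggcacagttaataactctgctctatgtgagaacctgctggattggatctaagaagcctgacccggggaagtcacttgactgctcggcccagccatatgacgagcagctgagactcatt
Rab43: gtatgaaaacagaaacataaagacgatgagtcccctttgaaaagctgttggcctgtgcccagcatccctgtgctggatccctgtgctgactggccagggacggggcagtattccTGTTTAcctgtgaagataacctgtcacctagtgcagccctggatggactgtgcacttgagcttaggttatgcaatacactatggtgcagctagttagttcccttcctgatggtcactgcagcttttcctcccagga
Rab7: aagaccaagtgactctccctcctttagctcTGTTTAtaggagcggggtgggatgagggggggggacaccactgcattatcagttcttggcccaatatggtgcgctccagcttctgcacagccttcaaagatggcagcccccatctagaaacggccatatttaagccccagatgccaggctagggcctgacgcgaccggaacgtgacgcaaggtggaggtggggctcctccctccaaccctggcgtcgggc

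Rab genes of late endosomes, lysosomes, phagosomes and autophagosomes had 5 fallers and 0 risers among 8 measured, with a median log2 fold change of -0.29. The share of fallers was 62.5%, beside 21.4% of all genes. Of these fallers, Rab7b, Rab34 and Rab7 were still called with the poly-A covariate. Each Rab gene was placed on a single role list, although some act at several organelles. The lists were chosen with earlier results of these data known, so the shares by role depend on that placing. Rab7b, which acts between late endosomes, lysosomes and the trans-Golgi and restrains Toll-like receptor signalling in macrophages, had the largest change of any called Rab gene. Its log2 value was 9.36, 9.58, 9.62, 9.39 and 9.17 in RAW-FoxQ1 clones 7.1 to 7.5, against 10.89, 10.45, 10.47 and 10.85 in RAW-vector clones 4 to 7. Every RAW-FoxQ1 clone lay below every RAW-vector clone, and vector clones 4 and 7 lay above 5 and 6. The log2 fold change was -1.24 (SE 0.122, adjusted p = 3.78e-05). Rab34, a Rab of the Golgi and of macropinosomes that positions lysosomes, read 9.89, 9.82, 9.67, 9.42 and 9.59 in RAW-FoxQ1 clones, against 10.63, 10.78, 10.75 and 10.63 in RAW-vector clones. The groups stood apart by more than the range of either, with a log2 fold change of -1.02 (SE 0.090, adjusted p = 1.94e-05). Rab9, which returns mannose 6-phosphate receptors from late endosomes to the Golgi, read 9.73, 9.62, 9.35, 9.57 and 9.53 in RAW-FoxQ1 clones and 10.46, 10.09, 10.03 and 10.54 in RAW-vector clones. Its values did not overlap, vector clones 4 and 7 were again above 5 and 6, and the log2 fold change was -0.72 (SE 0.117, adjusted p = 0.000826). The Rab9 call was lost with the poly-A covariate, at -0.60 (adjusted p = 0.132).

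Rab7, the main Rab of late endosomes that drives their fusion with lysosomes, changed less. Its level was 10.73, 10.73, 10.76, 10.78 and 10.58 in RAW-FoxQ1 clones and 10.93, 10.99, 10.97 and 10.83 in RAW-vector clones. The groups lay close together without overlap, RAW-FoxQ1 clone 7.5 was the lowest, and the log2 fold change was -0.21 (SE 0.050, adjusted p = 0.00711). It was -0.39 with the poly-A covariate and was still called. Rab12, which sends transferrin receptor to lysosomes, averaged 8.71 ± 0.060 in RAW-FoxQ1 and 9.08 ± 0.103 in RAW-vector clones (SD, n = 5 and 4), a log2 fold change of -0.37. The Rab12 call was lost with the poly-A covariate, at -0.34 (adjusted p = 0.0718). Of the 3 members not called, Rab24, linked to late steps of autophagy, had a log2 fold change of -0.17 and Rab29, a partner of the kinase Lrrk2, had -0.11. Rab9b was dim, at the 19.2 and 18.5 percentile of all genes in RAW-FoxQ1 and RAW-vector clones, with a log2 fold change of 0.013.

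Among 12 measured Rab genes of recycling endosomes and of the return to the plasma membrane, 5 fell and 1 rose (41.7% and 8.33%, beside 21.4% and 19.6% of all genes). Rab14, which works between early endosomes, recycling endosomes and the Golgi, read 10.91, 10.93, 10.81, 10.82 and 10.77 in RAW-FoxQ1 clones, against 11.68, 11.44, 11.42 and 11.66 in RAW-vector clones. RAW-FoxQ1 clones were all lower and lay within a narrow band, with a log2 fold change of -0.70 (SE 0.066, adjusted p = 2.77e-05). Rab11a, the defining Rab of the recycling endosome, read 10.40, 10.27, 10.23, 10.27 and 10.26 in RAW-FoxQ1 clones and 10.89, 10.89, 10.93 and 10.83 in RAW-vector clones. The spread within each group was small, RAW-FoxQ1 clone 7.1 was the highest of its group, and the log2 fold change was -0.60 (SE 0.042, adjusted p = 4.85e-06). Its paralogue Rab11b read 7.54, 7.51, 7.49, 7.51 and 7.49 in RAW-FoxQ1 clones, against 8.10, 8.08, 7.86 and 8.29 in RAW-vector clones. RAW-FoxQ1 clones were all lower and more alike than vector clones, and the log2 fold change was -0.58 (SE 0.072, adjusted p = 0.000161). Rab11b was at -0.42 with the poly-A covariate and was not called (adjusted p = 0.0694).

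Rab10, which carries Toll-like receptor 4 and glucose transporters to the cell surface, read 10.84, 10.85, 10.65, 10.67 and 10.70 in RAW-FoxQ1 clones and 11.42, 11.20, 11.03 and 11.48 in RAW-vector clones. No clone of one group reached the other, vector clone 6 lay nearest, and the log2 fold change was -0.54 (SE 0.092, adjusted p = 0.00106). Rab8b, a Rab of polarized delivery to the plasma membrane, read 11.80, 11.69, 11.53, 11.72 and 11.67 in RAW-FoxQ1 clones and 12.08, 12.25, 12.18 and 12.10 in RAW-vector clones. All RAW-FoxQ1 clones were lower, with a log2 fold change of -0.47 (SE 0.057, adjusted p = 0.000144). Rab35, which drives fast recycling and actin-dependent phagosome formation, moved the other way. It read 9.58, 9.67, 9.85, 9.86 and 9.84 in RAW-FoxQ1 clones, against 9.10, 9.21, 9.32 and 8.98 in RAW-vector clones. RAW-FoxQ1 clones were all higher, clone 7.1 the least so, with a log2 fold change of 0.60 (SE 0.083, adjusted p = 0.000287). Rab10 and Rab35 were not called with the poly-A covariate, at -0.47 (adjusted p = 0.134) and 0.58 (adjusted p = 0.0519). The 6 members not called were Rab13, Rab25, Rab4b, Rab15, Rab8a and Rab4a, with log2 fold changes between -0.080 and 0.082.

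**Figure D3:**
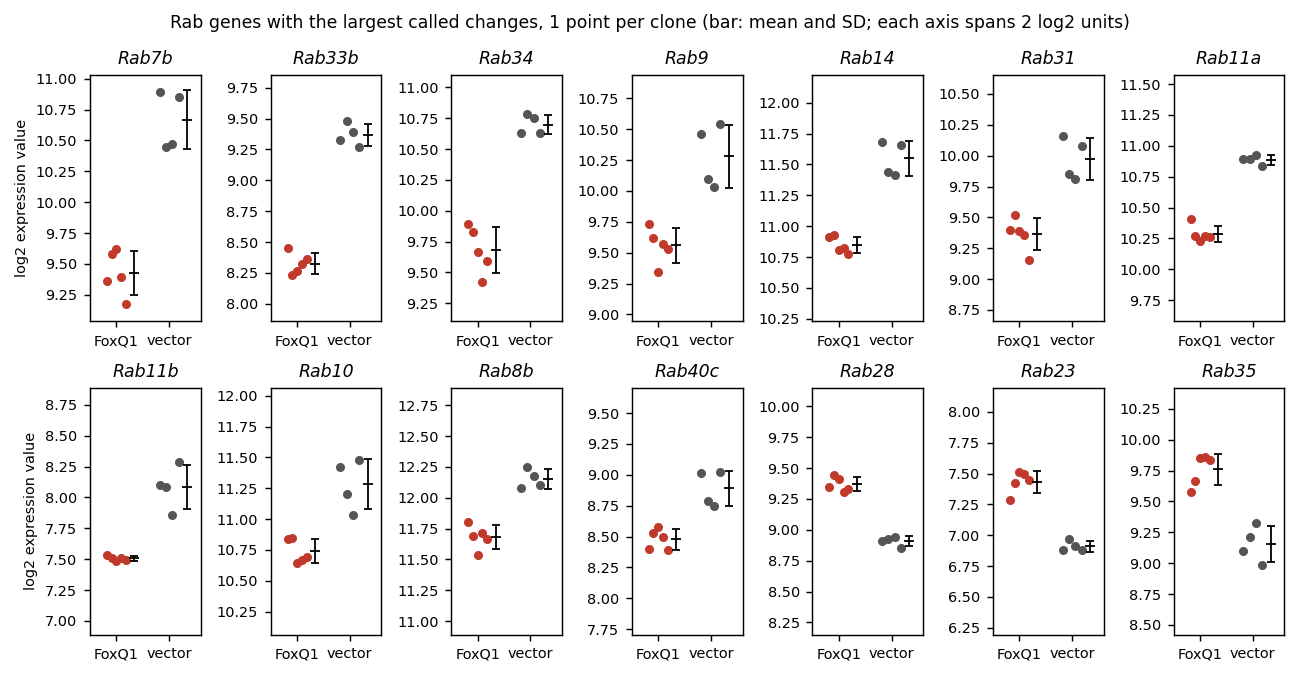
Log2 expression value of each clone for the 14 called Rab genes with the largest changes, RAW-FoxQ1 (red) left of RAW-vector (grey), with the mean and SD beside the points and axes of equal span. In each of these genes the points of the groups do not overlap, with Rab7b, Rab33b and Rab34 furthest apart.

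Early endosome genes were divided, with 2 fallers, 2 risers and 2 not called among 6 measured (66.7% called, beside 40.9% of all genes). Rab5a and Rab5b were not among those measured. Rab31, which carries cargo between the trans-Golgi and endosomes, read 9.40, 9.52, 9.39, 9.35 and 9.16 in RAW-FoxQ1 clones, against 10.16, 9.85, 9.81 and 10.08 in RAW-vector clones. RAW-FoxQ1 clones were all lower, clone 7.5 the lowest, with a log2 fold change of -0.61 (SE 0.090, adjusted p = 0.000465). Rab17, a Rab of epithelial transcytosis, differed by only -0.099 on the log2 scale (adjusted p = 0.0346), and the call was kept in 2 of 9 fits that each left out a clone and lost with the poly-A covariate (-0.16). The risers were both Rabs of entry. Rab5c, which fuses early endosomes, averaged 11.1 ± 0.122 in RAW-FoxQ1 and 10.7 ± 0.199 in RAW-vector clones, a log2 fold change of 0.41 (adjusted p = 0.00676). Rab21, known for the endocytic traffic of integrins, averaged 10.6 ± 0.078 in RAW-FoxQ1 and 10.3 ± 0.127 in RAW-vector clones (SD, n = 5 and 4 for both genes), a log2 fold change of 0.32 (adjusted p = 0.00298). The E-box of Rab21 stood 30 bases before the start in the window printed above. Neither Rab5c nor Rab21 was called with the poly-A covariate, at 0.52 (adjusted p = 0.111) and 0.38 (adjusted p = 0.0854). Rab22a and Rab20, the second a Rab of macrophage phagosomes, were not called at -0.070 and -0.19. Rab20 was called lower when clone 7.3 or vector clone 4 was left out.

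Endoplasmic reticulum and Golgi genes numbered 15, of which 5 fell, 1 rose and 9 were not called. The share called was 40%, close to the 40.9% of all genes. By direction, 33.3% were called lower and 6.67% higher, beside 21.4% and 19.6% of all genes. Rab33b, a Golgi Rab that binds the autophagy protein Atg16l1, read 8.45, 8.24, 8.26, 8.32 and 8.36 in RAW-FoxQ1 clones and 9.32, 9.48, 9.39 and 9.27 in RAW-vector clones. Both groups were tight and far apart, with a log2 fold change of -1.04 (SE 0.056), and no other Rab gene had a smaller adjusted p (1.11e-06). Rab43, which acts at the Golgi, averaged 7.59 ± 0.055 in RAW-FoxQ1 and 7.97 ± 0.0058 in RAW-vector clones, a log2 fold change of -0.38 (adjusted p = 2.30e-05). Rab1a, which starts traffic out of the endoplasmic reticulum, had a log2 fold change of -0.20 (adjusted p = 0.0119), which was -0.044 with the poly-A covariate and not called. Rab19, a Golgi Rab of less studied function, had -0.16 (adjusted p = 0.0208) and was not called without vector clone 4 or without vector clone 7, nor with the poly-A covariate (-0.072). Rab6a, of retrograde Golgi traffic, had -0.25 and was not called (adjusted p = 0.0777). It was called without vector clone 6, whose 10.00 lay inside the RAW-FoxQ1 range of 9.96 to 10.13, while the other vector clones were at 10.22 to 10.55. Rab18, of lipid droplets and the endoplasmic reticulum, had a log2 fold change of 0.016 with a 95% confidence interval of -0.37 to 0.41. Its values read 9.31, 9.61, 9.59, 9.24 and 8.87 in RAW-FoxQ1 clones and 9.55, 9.07, 9.04 and 9.57 in RAW-vector clones. The spread of Rab18 within each group was large beside its difference between the groups. The other Golgi members not called were Rab1b, Rab36, Rab6b, Rab30, Rab33a, Rab39b and Rab39, with log2 fold changes between -0.14 and 0.19. The riser Rab2a and the faller Rab2b are described with their paralogues below.

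Regulated secretion and lysosome-related organelles had 11 measured Rab genes, of which 2 fell, 1 rose and 8 were not called. The share called was 27.3%, below the 40.9% of all genes. Rab3a, the synaptic vesicle Rab that also serves lysosome exocytosis, averaged 7.53 ± 0.091 in RAW-FoxQ1 and 7.80 ± 0.052 in RAW-vector clones (SD, n = 5 and 4), a log2 fold change of -0.27 (adjusted p = 0.00212). Rab3d, of secretory granules, had -0.32 (adjusted p = 0.0198) but its groups overlapped, since RAW-FoxQ1 clone 7.1 at 8.37 exceeded vector clone 7 at 8.36. The Rab3d call was lost without vector clone 4 or without vector clone 6. Rab27a, which docks secretory lysosomes and granules, read 6.78 to 6.97 in RAW-FoxQ1 and 6.54 to 6.68 in RAW-vector clones, a log2 fold change of 0.25 (adjusted p = 0.00201). These levels were dim, at the 30.7 and 18.8 percentile of all genes, and the call was lost with the poly-A covariate (adjusted p = 0.0883).

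Rab32, a Rab of lysosome-related organelles and mitochondria that limits bacteria in macrophages, had the largest positive log2 fold change of the family, 0.71, and was not called (SE 0.258, adjusted p = 0.0522). It read 9.59, 10.06, 11.18, 10.10 and 10.10 in RAW-FoxQ1 clones and 9.48, 9.59, 9.48 and 9.43 in RAW-vector clones. The groups did not overlap, but clone 7.3 stood far above the rest and clone 7.1 exceeded vector clone 5 only beyond the second decimal. The two-sided exact permutation p of this difference was 0.0159. Rab32 was called higher without clone 7.1 and also without clone 7.3, where the log2 fold change was 0.47. Over all 9 clones it was called higher with the trend and robust settings of limma (adjusted p = 0.0498) and when dim rows were dropped (adjusted p = 0.0327). It was not called with the poly-A covariate, at 0.49 (adjusted p = 0.617). Its relative, Rab38, was not called, at -0.081 (adjusted p = 0.0900). Likewise Rab3b, Rab44, Rab27b, Rab37, Rab3c and Rab26 were not called, with log2 fold changes between -0.092 and 0.0049.

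Of the 4 Rab genes with other or less defined roles, 2 rose, 1 fell and 1 was not called (75% called, beside 40.9% of all genes). Rab23, an inhibitor of Hedgehog signalling that acts at the cilium, read 7.28, 7.43, 7.51, 7.50 and 7.44 in RAW-FoxQ1 clones, against 6.88, 6.97, 6.91 and 6.88 in RAW-vector clones. The groups were apart, clone 7.1 lay nearest to the vector clones, and the log2 fold change was 0.52 (SE 0.049, adjusted p = 2.88e-05). Rab28, also linked to cilia, read 9.35, 9.45, 9.41, 9.31 and 9.33 in RAW-FoxQ1 clones and 8.91, 8.93, 8.94 and 8.85 in RAW-vector clones. Its spread was small in both groups, all RAW-FoxQ1 clones were higher, and the log2 fold change was 0.46 (SE 0.038, adjusted p = 1.31e-05). Rab40c, which carries a SOCS box and joins a ubiquitin ligase, read 8.40, 8.53, 8.58, 8.49 and 8.39 in RAW-FoxQ1 clones, against 9.01, 8.79, 8.75 and 9.02 in RAW-vector clones. RAW-FoxQ1 clones were all lower and vector clones 5 and 6 lay nearest, with a log2 fold change of -0.41 (SE 0.070, adjusted p = 0.00101). Rab40c was at -0.47 with the poly-A covariate and missed the threshold (adjusted p = 0.0600).

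Paralogues that share a number were compared by their difference within each array. Of 18 such pairs, 9 had differences that did not overlap between the groups. In 6 of these 9 pairs a partner was dim (Rab33a, Rab3c, which is in 2 of them, Rab40b, Rab9b or Rab27b), so that the difference mostly repeats the change of the other gene. The same share over other pairs of genes was not computed, while 36.1% of all single genes did not overlap between the groups. These pairs were set side by side after the values were seen, and no p is given for them. Rab2a and Rab2b, which both act between the endoplasmic reticulum and the Golgi, were called in opposite directions. Rab2a read 10.21, 10.29, 10.15, 10.20 and 10.38 in RAW-FoxQ1 clones and 9.84, 9.98, 9.84 and 9.82 in RAW-vector clones, a log2 fold change of 0.38 (SE 0.054, adjusted p = 0.000396). Rab2b read 7.29, 7.29, 7.19, 7.25 and 7.26 in RAW-FoxQ1 clones and 7.53, 7.52, 7.52 and 7.52 in RAW-vector clones, a log2 fold change of -0.26 (SE 0.030, adjusted p = 9.92e-05). Neither gene overlapped between the groups, and the log2 fold changes differed by 0.64 (SE 0.052).

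For the other leading fallers the paralogue changed less or not detectably. The log2 fold change of Rab7 exceeded that of Rab7b by 1.03 (SE 0.147), although both were called lower. Rab33a was dim and read 6.64, 6.65, 6.68, 6.57 and 6.69 in RAW-FoxQ1 clones and 6.63, 6.64, 6.72 and 6.69 in RAW-vector clones. Its groups overlapped, and its log2 fold change exceeded that of Rab33b by 1.01 (SE 0.068). Rab9b, dim as well, read 6.59, 6.63, 6.67, 6.59 and 6.60 in RAW-FoxQ1 clones and 6.54, 6.57, 6.60 and 6.70 in RAW-vector clones. The log2 fold change of Rab9 was below that of Rab9b, with a difference of -0.73 (SE 0.134). Rab8a, unlike these, was a bright gene and read 10.26, 10.33, 10.31, 10.28 and 10.07 in RAW-FoxQ1 clones and 10.21, 10.17, 10.20 and 10.12 in RAW-vector clones. RAW-FoxQ1 clone 7.5 fell below all vector clones and the other 4 above them, and the log2 fold change of Rab8a exceeded that of Rab8b by 0.55 (SE 0.084). Without clone 7.5 Rab8a was called higher, at 0.12 (adjusted p = 0.0231). Over all clones with the poly-A covariate Rab8a was at -0.16 and not called. Rab40b, also dim, read 6.73, 6.68, 6.60, 6.71 and 6.71 in RAW-FoxQ1 clones and 6.61, 6.66, 6.77 and 6.64 in RAW-vector clones. The groups of Rab40b overlapped, and its log2 fold change exceeded that of Rab40c by 0.43 (SE 0.110). By contrast, Rab11a and Rab11b differed by -0.024 (SE 0.098), with overlapping within-array differences. The poly-A covariate changed the Rab8a and Rab8b difference to 0.30 and that of Rab11a and Rab11b to -0.22. A dim gene can show less change on an array than it has, and no source states which probes paralogues may share.

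**Figure D4:**
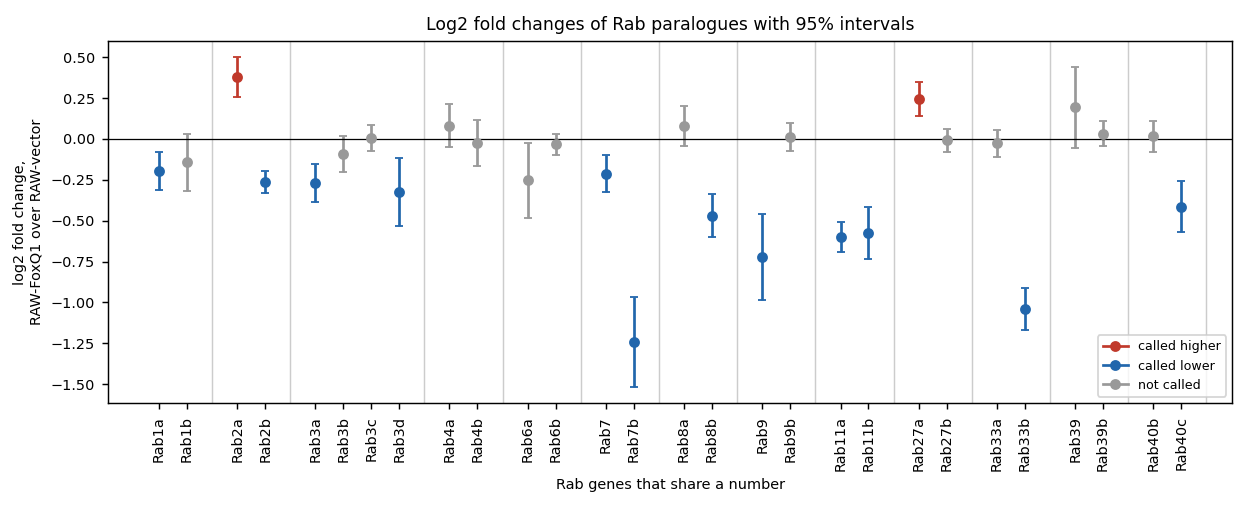
Log2 fold change (RAW-FoxQ1 over RAW-vector) with 95% confidence interval from limma of Rab genes that share a number, with red for called higher, blue for called lower and grey for not called. Rab2a and Rab2b lie on opposite sides of 0, Rab11a and Rab11b lie together, and Rab7b, Rab33b, Rab9, Rab8b and Rab40c lie below their paralogues.

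Within a group, Rab levels varied by a median SD of 0.077 in RAW-FoxQ1 and 0.072 in RAW-vector clones on the log2 scale. The vector clones 4 and 7 resembled each other over all genes (r = 0.998), as did clones 5 and 6 (r = 0.997), while clones 6 and 7 had the lowest correlation of that group (0.988). Among the 56 Rab genes, clones 4 and 7 were both above clones 5 and 6 in 20, with the widest gaps in Rab18, Rab7b and Rab9. They were both below in 21, with the widest gaps in Rab5c, Rab29 and Rab4b, and the clones were mixed in 15. The same counts over all genes were not computed. Among the RAW-FoxQ1 clones, clone 7.3 was the least like clone 7.1 (r = 0.981) and had the highest Rab32 and Rab39.

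The 56 Rab genes lie on many chromosomes, and few lie near each other. In the RefSeq gene order (GRCm38.p6), Rab7b and Rab29 on chromosome 1 have 3 protein-coding genes between them, Rab43 and Rab7 on chromosome 6 have 6, and Rab31 and Rab12 on chromosome 17 have 8. Rab7b fell by 1.24 on the log2 scale, whereas Rab29 had a log2 fold change of -0.11 and was not called. Rab43 and Rab7 were both called lower, as were Rab31 and Rab12.

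The regulators and effectors of Rabs were read from 4 lists with 132 measured genes, of which 30 rose and 43 fell (55.3% called, beside 40.9% of all genes), with a median log2 fold change of -0.061. The membrane cycle list held 10 genes, with 2 risers and 5 fallers (70% called). Rabac1 (Pra1), which hands prenylated Rabs to membranes, averaged 10.9 ± 0.294 in RAW-FoxQ1 and 12.1 ± 0.019 in RAW-vector clones (SD, n = 5 and 4), a log2 fold change of -1.21 (SE 0.131, adjusted p = 6.84e-05). Yipf1, a Golgi membrane protein of a family that binds Rabs, had -0.30 (-0.57 with the poly-A covariate), and Rabggta, a subunit of the enzyme that attaches the lipid, had -0.28. The risers were small: Chm (Rep1), the escort for that enzyme, at 0.14 and Rabif (Mss4), a Rab chaperone, at 0.21. Rabif was kept in 4 of 9 fits that each left out a clone and was not called by the gene-by-gene test that the methods name, and Chm was not called with the trend and robust settings. Rabac1 and Yipf1 kept their calls with the poly-A covariate (adjusted p = 0.0158 and 0.0196), whereas Chm (0.122), Rabif (0.177) and Rabggta (0.318) lost theirs.

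Of 35 Rab GEFs, 8 rose and 11 fell (22.9% and 31.4%, beside 19.6% and 21.4% of all genes). Gapvd1, a GEF of Rab5 proteins, averaged 10.3 ± 0.433 in RAW-FoxQ1 and 9.15 ± 0.168 in RAW-vector clones, a log2 fold change of 1.14 (SE 0.201, adjusted p = 0.00133). Rinl, also a GEF of Rab5 proteins, had 0.58, Ccz1, a part of the Rab7 GEF, had 0.39 and Dennd1c, of the Rab35 GEF family, had 0.33. The fallers were led by Dennd3, a GEF of Rab12, at -0.77 (adjusted p = 0.000109), beside the Rab12 log2 fold change of -0.37. Rab12 itself was not called with the poly-A covariate. The fallers continued with the Rab5 GEF Rin2 at -0.75. Hps1, a part of the GEF of Rab32 and Rab38, had -0.57, and Dennd5a, a GEF of Rab39, had -0.56. With the poly-A covariate Rinl, Ccz1 and Dennd3 were still called. The other 5 named GEFs were not, with adjusted p of 0.243 for Gapvd1 (log2 fold change 0.75), 0.197 for Dennd1c, 0.0962 for Rin2, 0.114 for Hps1 and 0.167 for Dennd5a.

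Rab GAPs fell more often than they rose, with 16 fallers and 5 risers among 34 genes and a median log2 fold change of -0.12. The share of fallers was 47.1%, beside 21.4% of all genes. Tbc1d2b averaged 7.69 ± 0.672 in RAW-FoxQ1 and 9.26 ± 0.075 in RAW-vector clones, a log2 fold change of -1.57 (SE 0.296, adjusted p = 0.00201) that was -1.28 without clone 7.3, its lowest clone. Tbc1d9b had -1.0 (adjusted p = 1.86e-05), Tbc1d22a had -0.94 (adjusted p = 1.51e-05) and Tbc1d2, a GAP of Rab7, had -0.51 (adjusted p = 0.000919). The risers were Sgsm1 at 0.95, Tbc1d19 at 0.77, Tbc1d14, an autophagy regulator that binds Rab11, at 0.34 and Sgsm3 at 0.23. Tbc1d14 was kept in 4 of 9 fits that each left out a clone and was at 0.15, not called, with the poly-A covariate. With the poly-A covariate Tbc1d9b, Tbc1d22a, Tbc1d2 and Tbc1d19 were still called, and Tbc1d2b (-1.26, adjusted p = 0.209) and Sgsm1 (0.68, adjusted p = 0.127) were not.

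Rab effectors had the highest share of risers of the 4 lists, 15 of 53 (28.3%, beside 19.6% of all genes), with 11 fallers. Uso1 (p115), a Golgi tether that binds Rab1, had a log2 fold change of 0.66 (adjusted p = 0.000721). Sytl2, which links Rab27 to the plasma membrane, had 0.65 (adjusted p = 0.00328). Sytl2 was dim in RAW-vector clones, at the 13.5 percentile of all genes. It was highest in clone 7.3 at 7.64, beside 6.94 to 7.19 in the other RAW-FoxQ1 clones. Rufy1, an endosomal effector of Rab4 and Rab14, had 0.53, and Inpp5b, a phosphoinositide phosphatase that binds several Rabs, had 0.50. None of these 4 was called with the poly-A covariate, where Uso1 and Sytl2 were at 0.37, Rufy1 at 0.30 and Inpp5b at 0.43. The leading fallers were Appl2, an endosomal adaptor, at -1.15 (SE 0.312, adjusted p = 0.0144) and Rab11fip5, an effector of Rab11, at -0.85 (SE 0.228, adjusted p = 0.0140). Unc13d (Munc13-4), the Rab27 effector of granule release, had -0.73 (adjusted p = 2.79e-06), and Fyco1, which ties Rab7 vesicles to kinesin, had -0.72 (adjusted p = 8.55e-06). Unc13d and Fyco1 were still called with the poly-A covariate, at -0.75 and -0.78, whereas Appl2 (-1.07, adjusted p = 0.324) and Rab11fip5 (-0.70, adjusted p = 0.377) were not.

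**Figure D5:**
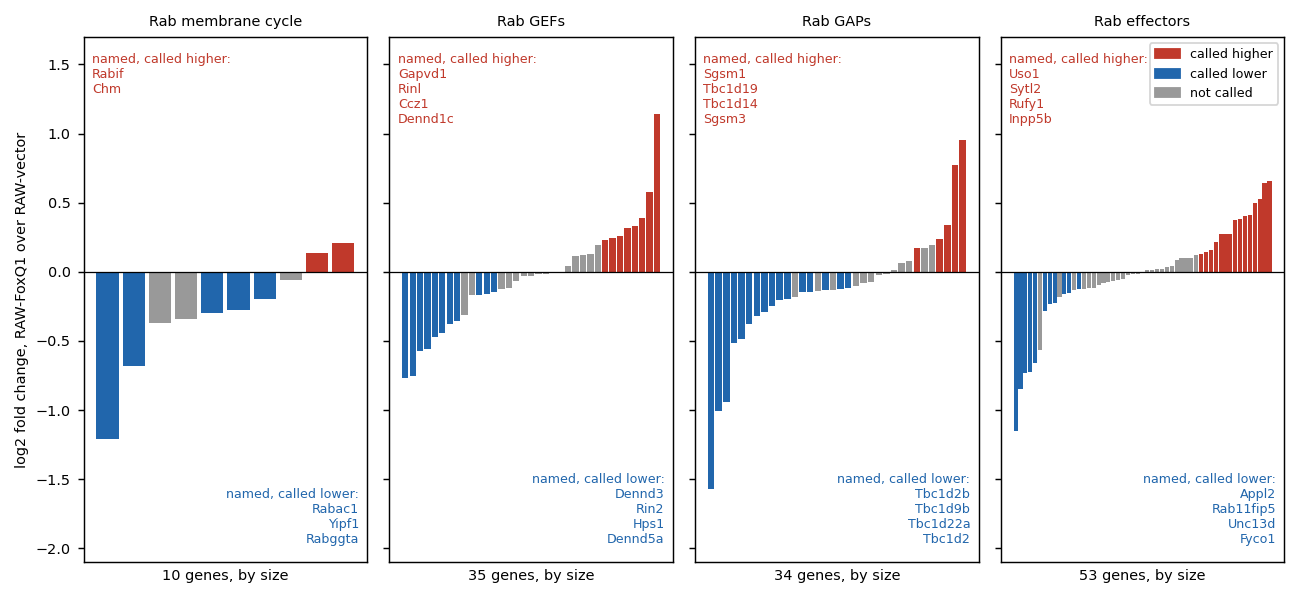
Log2 fold change (RAW-FoxQ1 over RAW-vector) of each measured gene of the 4 Rab pathway lists, sorted by size, with red bars for called higher, blue for called lower and grey for not called, and genes named in the text listed in each panel. The GAP panel holds 16 blue and 5 red bars, and the effector panel 11 blue and 15 red bars.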

How the data were processed

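Total RNA of 9 stable RAW-264.7 clones was hybridized to Affymetrix mouse arrays, 1 per clone. The authors grouped the probes with a custom chip definition of Entrez genes and applied quantile normalization. The submitters' notes name RMA, of a version not stated. The deposited values are on the log2 scale. Scanner files were not used, which leaves background correction and probe summary as the authors made them. With 1 array per clone, the number of arrays sets the precision.

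The file held 16556 rows, and its 64 control probe sets were left out of the fit, 27 poly-A ones serving as the covariate described below. A probe table named 54 of the Rab genes, and Rab36 and Rab44 were named through their Entrez IDs in RefSeq. The 16492 genes were fitted with lmFit and eBayes (limma 3.58.1, R 4.3.3) with the group as the only term. A gene was called where its Benjamini-Hochberg adjusted p was below 0.05. A two-sided exact permutation test over all 126 assignments of the clones stood beside it for single differences, and its smallest p is 0.00794. Of the 27 called Rab genes all reached that p except Rab17 (0.0159) and Rab3d (0.0238). Both tests use the same clone values, so this p is not independent of the call.

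Every Rab gene may be named. Values of each clone are given for the 14 called members with the largest changes and for their paralogues, and up to 4 called genes per direction are named from each Rab pathway list. A called gene of the membrane cycle list is not reported here. Values of each clone for Rab32, Rab18, Rab2a and Rab2b were added after they were seen. The members and lists were chosen with earlier results of these data known. Alternatives tried were the one-way ANOVA that the methods name, a variance prior with trend and robust settings, median centring of arrays, a filter at the 40 percentile of mean signal, the poly-A spike-in mean as a covariate, and leaving out each clone. The fit was tested on simulated data.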

Additional observations from a re-analysis of the deposited data

Results flagged for a closer look

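Single clones that stood apart from the others of their group were looked for by Dixon's test in the Rab genes and the named regulators, and 11 of 172 groups of clones were past the critical value. Chance alone gives about 1 in 20 groups, that is 5%. The count was near that share, so a flag by itself is not a result about the gene or the clone. Among the called Rab genes, Rab7 was lowest in RAW-FoxQ1 clone 7.5 at 10.58, where the others lay between 10.73 and 10.78, and its log2 fold change without that clone was -0.18. Rab11a was highest in clone 7.1 at 10.40, with the others between 10.23 and 10.27, and the log2 fold change was -0.63 without it. Rab2a was highest in RAW-vector clone 5 at 9.98, with the others between 9.82 and 9.84, and the log2 fold change was 0.41 without it.

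Of the Rab genes not called, Rab8a was lowest in clone 7.5 at 10.07, beside 10.26 to 10.33 in the others. Without that clone it was called higher, with a log2 fold change of 0.12. Over all clones with the poly-A covariate it was at -0.16 and not called. Rab39, a Rab of the Golgi and endosomes, was highest in clone 7.3 at 7.16, beside 6.58 to 6.68, and its log2 fold change was 0.089 without that clone. Rab26 was highest in clone 7.1 at 7.00, beside 6.99 in the others. Rab27b was lowest in RAW-vector clone 6 at 6.24, beside 6.31 in the others.

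Among the regulators, Tbc1d2b was lowest in clone 7.3 at 6.55, beside 7.83 to 8.33 in the other RAW-FoxQ1 clones. Dennd3 was also lowest in clone 7.3, at 8.33 beside 8.67 to 8.79, and its log2 fold change was -0.69 without it. Tbc1d2 and Chm were highest in RAW-vector clone 5, Tbc1d2 at 8.82 beside 8.62 to 8.64, and Chm at 8.52 beside 8.41 to 8.43.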

How the results depend on the processing

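The clone numbers are not shared between the groups. No paired analysis was possible because nothing pairs a RAW-FoxQ1 clone with a RAW-vector clone. The one-way ANOVA, the trend and robust settings, median centring, the filter on dim genes (41 Rab genes left) and leaving out each clone gave 7 to 8 Rab genes called higher and 18 to 21 called lower. With the poly-A covariate, which follows the group, 3 Rab genes were called higher and 11 lower, and 7 Rab pathway genes higher and 15 lower, beside 1461 higher and 1274 lower over all genes. Signs turned only in Rab genes that were not called. With the poly-A covariate the log2 fold changes were -0.11 for Rab15, -0.16 for Rab8a, -0.43 for Rab18, -0.082 for Rab26, -0.081 for Rab37, -0.049 for Rab3c, 0.078 for Rab1b and 0.035 for Rab27b. Leaving out 1 RAW-FoxQ1 clone turned Rab15 (-0.0021), Rab18 (-0.056 and -0.051), Rab4b (0.0039), Rab37 (-0.0070 and -0.0010), Rab3c (-0.012) and Rab27b (0.0043). Leaving out 1 RAW-vector clone gave -0.073 to 0.10 for Rab18, -0.070 to 0.015 for Rab4b, -0.00095 to 0.051 for Rab40b, -0.0074 to 0.045 for Rab9b, -0.021 to 0.049 for Rab26, -0.014 to 0.021 for Rab37, -0.0069 to 0.017 for Rab3c and -0.023 to 0.00022 for Rab27b. Signs turned in dim genes, such as Rab3c and Rab27b, and also in bright genes, such as Rab18, Rab8a and Rab4b. Values of genes near the dim end of the array are limited by signal over background. The causes of the turns were not tested.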
